A study of Homo sapiens with 8 samples.

Results

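The transcripts of 56 genes of DNA replication and S phase were followed in human hepatocellular carcinoma cells. The genes were chosen by name, as parts of the replication machinery, and all 56 were found among the 18132 genes of the array. They were covered by 148 of the 49293 probe sets that were not array controls, counting probe sets whose only gene symbol was that of a member. RNA came from 3 groups of 2 cultures each, which the titles call biological replicates. These were Hep3B cells kept with the solvent DMSO for 48 h, Huh7.5.1 cells kept with DMSO for 48 h, and Huh7.5.1 cells kept with 10 μM CU27 for 48 h. Both are established liver cancer lines, and the labels name no introduced allele or transgene in either. Huh7.5.1 descends from Huh-7 and is widely used for growing hepatitis C virus. For CU27, a compound, the labels give a code name alone. The columns deposited for Hep3B with CU27 could each be computed from both Hep3B DMSO columns by a linear formula, within 1e-06 at every probe set, and were left out. The same formulas can be turned round to give the DMSO columns. Whether the Hep3B DMSO columns are independent readings was not tested. No effect of CU27 in Hep3B is therefore given.

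Replication starts at origins that are licensed in G1, when the origin recognition complex, CDC6 and CDT1 load the ring of MCM2 to MCM7 onto DNA. In S phase the kinase CDC7 with DBF4 and the cyclin-dependent kinases turn that ring into an active helicase by adding CDC45 and the GINS complex. Primase and DNA polymerases alpha, delta and epsilon then copy the strands, held by the PCNA clamp, while ribonucleotide reductase and thymidylate synthase supply the nucleotides. Many of these genes are transcribed in a burst at the G1/S boundary under E2F transcription factors. Normal hepatocytes rarely divide, whereas hepatoma lines in culture cycle and express these genes. In RNA from bulk cultures, fewer cells in S phase and less RNA per cell cannot be told apart.

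Signals are given in log2 units, so that a difference of 1 unit is a 2-fold change. Each gene was read from its probe set with the highest mean, and every member reached the floor of 6.11, the median signal once array controls were set aside, in at least 1 group. The 10 measured hepatocyte markers of 11 listed had signals from 8.64 to 14.44 on all 6 arrays, and the log2 of their summed linear signals ran from 16.44 to 16.51 in Hep3B DMSO, 16.63 to 16.68 in Huh7.5.1 DMSO and 16.09 to 16.42 with CU27. PTPRC, the pan-leukocyte antigen, stayed between 2.76 and 3.55. Fibroblast markers had summed signals of 7.94 to 7.99, 7.63 to 7.86 and 7.62 to 7.63 in the same order, with 2 of 5 reaching the floor, and endothelial ones of 7.27 to 7.35, 7.67 to 7.93 and 7.59 to 7.65, with 1 of 4. The summed leukocyte list, with 3 of 5 measured genes reaching the floor, ran from 8.77 to 9.11, from 11.90 to 11.94 and from 11.14 to 11.69. Its member CD68, a lysosomal protein also made outside leukocytes, was 2.25 higher with CU27, while CD14, a monocyte receptor also made by liver cells, was at -0.69 and LYZ, lysozyme, at -0.84. LYZ had the highest signals of the list, at 7.36 and 8.09 in Hep3B, 11.83 and 11.86 in Huh7.5.1 with DMSO and 10.57 and 11.44 with CU27. The part of these markers in the results below was not tested.

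CU27 lowered a minority of replication genes in Huh7.5.1 and raised a pair of them. Of the 56 members, 11 fell and 2 rose (limma, adjusted p threshold 0.05, n = 2 arrays per group). The genes that fell were ORC2, POLA1, GINS3, POLE2, MCM10, CDC6, RRM2, RFC3, GINS4, FEN1 and MCM3, from the largest fall to the smallest, and those that rose were E2F1 and ORC3. Falls among these reached 1.79-fold and the rise of E2F1 was 1.76-fold, so no called member changed by 2-fold on the probe set used. Of all 11383 genes tested, 24.7% were called, 12.1% falling and 12.6% rising. The called share of members, 23.2%, was near that background, while its split was 19.6% falling against 3.57% rising.

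Of the 43 members without a call, 28 lay below DMSO, and both CU27 arrays lay below both DMSO arrays for 18 of them and above for 6. Over all members, the mean with CU27 lay below that with DMSO for 39 of 56 members, or 69.6%, against 48.1% of all genes tested. The median member difference was -0.21, compared with 0.02 over all genes. Both CU27 arrays lay below both DMSO arrays for 29 members, or 51.8%, against 31% of all genes, and above them for 8 members, or 14.3%, against 32.9%. These shares describe a set of named genes and were not tested as a set.

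**Figure D1:**
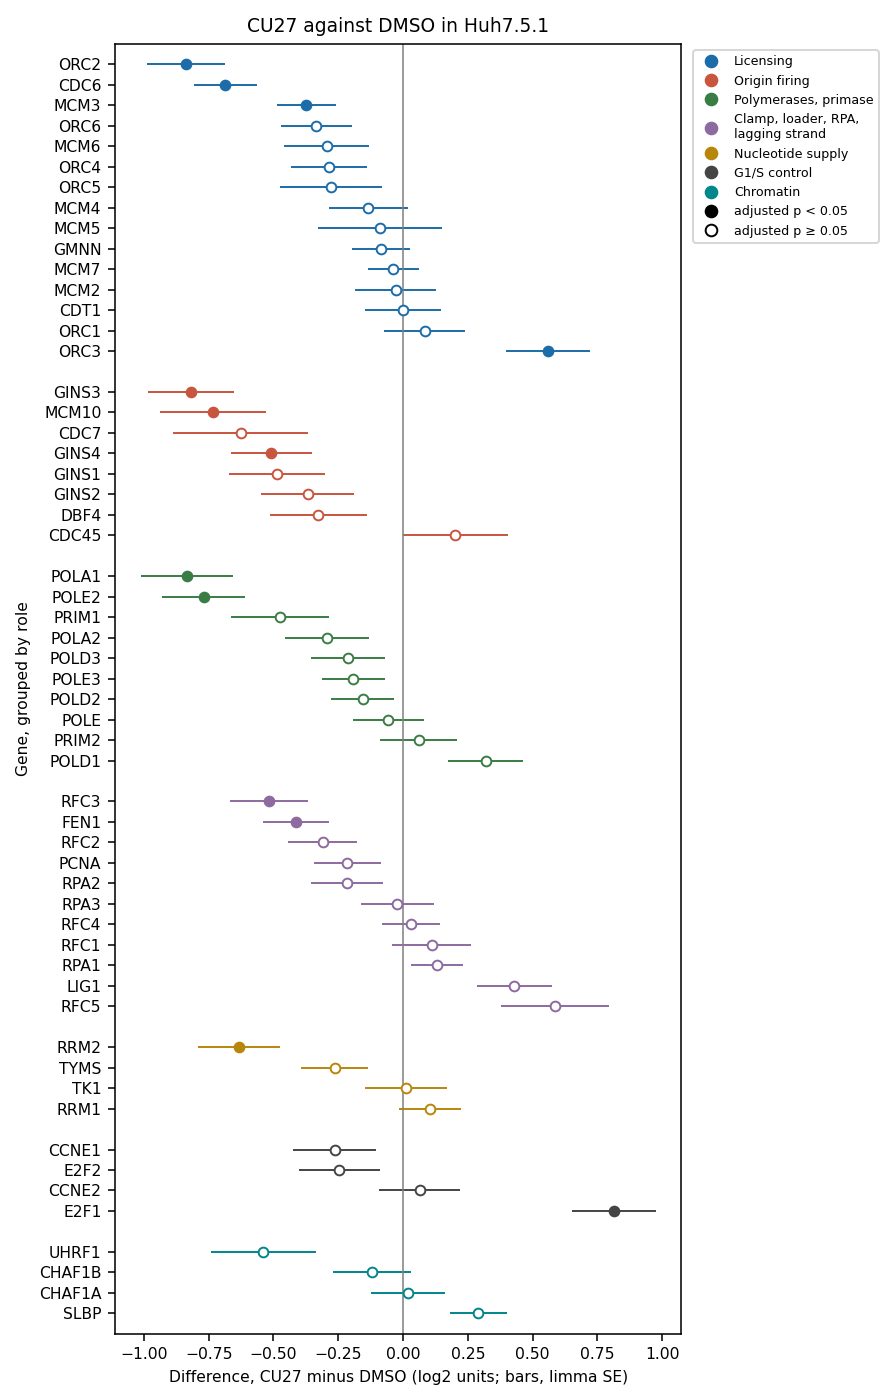
Difference between CU27 and DMSO in Huh7.5.1 for the 56 members (x axis, log2 units; y axis, genes grouped by role), with limma standard errors as bars and filled points for an adjusted p below 0.05. The 13 filled points comprise 11 to the left of 0 and 2, ORC3 and E2F1, to the right, and the origin firing genes lie to the left except CDC45.

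The number of calls moved with single arrays. The number of members that fell was 3 without Huh7.5.1 DMSO replicate 1, 2 without Huh7.5.1 DMSO replicate 2, 5 without Huh7.5.1 CU27 replicate 2, and 6 without either Hep3B array, which entered through the shared estimate of spread. The number that rose was 1, 0 and 2 in the first 3 of these and 1 without Huh7.5.1 CU27 replicate 1. CDC6 was past the test in all 17 alternative settings, and ORC2, GINS3, POLE2 and E2F1 missed it in 1 each. The setting with all 8 deposited columns is among the 17. It put back the Hep3B columns with CU27, which hold no new readings, so its outcome is no separate check.

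Promoters show what the members share apart from their roles. RefSeq windows on GRCh38.p14, from 250 bases before to 50 after the annotated start, were at hand for 49 members, and MCM4, MCM5, GINS4, POLD3, RPA2, RPA3 and CCNE2 had no entry. The E2F core was searched on both strands as TTGGCGC or TTGCCGC and also as TTCGCGC or TTCCCGC, which can overlap each other on opposite strands. It was found in 32 of the 49 windows, or 65.3%, against 20.8% of the windows of 9438 tested genes and 13% of all 35116. The CCAAT box stood in 51% of member windows, against 36.7% of those of tested genes and 34.6% of all. The Sp1 box GGGCGG stood in 71.4%, near the 70.2% of tested genes and above the 45% of all, and the cell cycle homology word TTTGAA or its variant TTCGAA in 6.12%, against 11.5% and 16.4%. The E2F core was present in 6 of 10 members that fell, in both that rose and in 24 of 37 without a call, and so was seen with either direction and with none. The windows of CDC6, POLA1 and RRM2, which fell, and of E2F1, which rose, are shown because they differ in direction or in matches, with every E2F match in capitals:
CDC6: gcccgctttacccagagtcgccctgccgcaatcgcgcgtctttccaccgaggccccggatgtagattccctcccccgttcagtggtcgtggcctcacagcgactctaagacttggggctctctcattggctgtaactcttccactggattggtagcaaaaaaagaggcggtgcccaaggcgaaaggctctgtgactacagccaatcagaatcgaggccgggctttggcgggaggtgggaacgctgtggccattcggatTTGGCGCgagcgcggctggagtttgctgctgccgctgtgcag
POLA1: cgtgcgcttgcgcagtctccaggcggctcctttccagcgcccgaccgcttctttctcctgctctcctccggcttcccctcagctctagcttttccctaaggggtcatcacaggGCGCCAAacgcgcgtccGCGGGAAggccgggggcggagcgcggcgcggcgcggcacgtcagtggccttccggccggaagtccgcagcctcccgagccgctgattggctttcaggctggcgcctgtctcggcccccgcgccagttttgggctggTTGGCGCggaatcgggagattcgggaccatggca
RRM2: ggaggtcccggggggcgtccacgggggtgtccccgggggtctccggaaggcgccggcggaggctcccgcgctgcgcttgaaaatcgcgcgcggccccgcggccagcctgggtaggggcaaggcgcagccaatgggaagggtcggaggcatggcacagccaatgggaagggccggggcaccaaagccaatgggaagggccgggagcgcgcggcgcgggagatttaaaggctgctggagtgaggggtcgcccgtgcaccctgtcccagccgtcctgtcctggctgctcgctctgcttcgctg
E2F1: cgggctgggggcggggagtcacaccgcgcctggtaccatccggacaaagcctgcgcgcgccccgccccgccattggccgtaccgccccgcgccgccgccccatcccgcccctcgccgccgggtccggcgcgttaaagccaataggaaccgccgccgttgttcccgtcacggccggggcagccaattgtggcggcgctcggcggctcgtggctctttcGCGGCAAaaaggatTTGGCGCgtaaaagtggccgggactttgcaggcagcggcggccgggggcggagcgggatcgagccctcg
The first lies at chr17:40287629-40287928 on the plus strand, the second at chrX:24693668-24693967 plus, the RRM2 window at chr2:10122489-10122788 plus and the E2F1 window at chr20:33686336-33686635 minus. CDC6 has 1 match, which begins 8 bases after the start, and POLA1 has 3, of which those before the start begin 137 and 120 bases upstream. E2F1 has 2 matches, 33 and 19 bases upstream. RRM2 has 0 in this window.

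Among the 15 licensing genes, 3 fell and 1 rose, with a median difference of -0.13. CDC6, the ATPase that recruits MCM rings to the origin recognition complex, read 10.74 and 10.58 in the DMSO cultures and 10.02 and 9.92 with CU27. The difference was -0.69 (SE 0.12, limma adjusted p = 0.00526, from 2 arrays in each group). ORC2, a core subunit of the origin recognition complex, read 8.78 and 8.83 with DMSO and 8.09 and 7.85 with CU27. It fell by 0.84 ± 0.15 (adjusted p = 0.00544), and without Huh7.5.1 DMSO replicate 2 its value was -0.81 with an adjusted p of 0.0517. Its other probe sets had differences of -0.62 and -0.48.

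ORC3, another subunit of the same complex, moved the other way. Its signals were 9.32 and 9.31 with DMSO and 9.85 and 9.90 with CU27, a rise of 0.56 ± 0.16 (adjusted p = 0.0345). All 5 of its other probe sets above the floor were also higher with CU27. The call was lost without any single Huh7.5.1 array, at values from 0.54 to 0.58 and adjusted p from 0.0665 to 0.153. The remaining subunits were not past the test, with -0.33 for ORC6, -0.29 for ORC4, -0.28 for ORC5 and 0.08 for ORC1. The complex therefore held 1 subunit that fell, 1 that rose and 4 without a call.

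By the probe sets used, the MCM ring showed only a small change. MCM3 read 10.58 and 10.63 with DMSO and 10.32 and 10.14 with CU27, a difference of -0.37 ± 0.11 (adjusted p = 0.0426) that missed the test in 10 of 17 alternatives (adjusted p from 0.0219 to 0.196). Among them were each Hep3B array left out (-0.37, adjusted p = 0.0744 and 0.0725), Huh7.5.1 DMSO replicates 1 and 2 (-0.40 and -0.35) and Huh7.5.1 CU27 replicate 2 (-0.29). Its 3 other probe sets were also lower, at -0.57, -0.47 and -0.39. The other 5 ring subunits had differences from -0.29 for MCM6 to -0.03 for MCM2, none past the test, and on these probe sets their CU27 and DMSO arrays overlapped. The other MCM6 probe sets fell further, at -0.68 and -0.53, neither past the test when all probe sets were tested. Other probe sets of MCM2, MCM4 and MCM7 lay between -0.34 and 0.03. CDT1, which loads the ring with CDC6, was at 0.00 ± 0.15. Its other probe sets were at 0.43 and 0.30, neither past the test when all probe sets were tested. GMNN, the geminin that blocks reloading by binding CDT1, was at -0.08 ± 0.11.

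**Figure D2:**
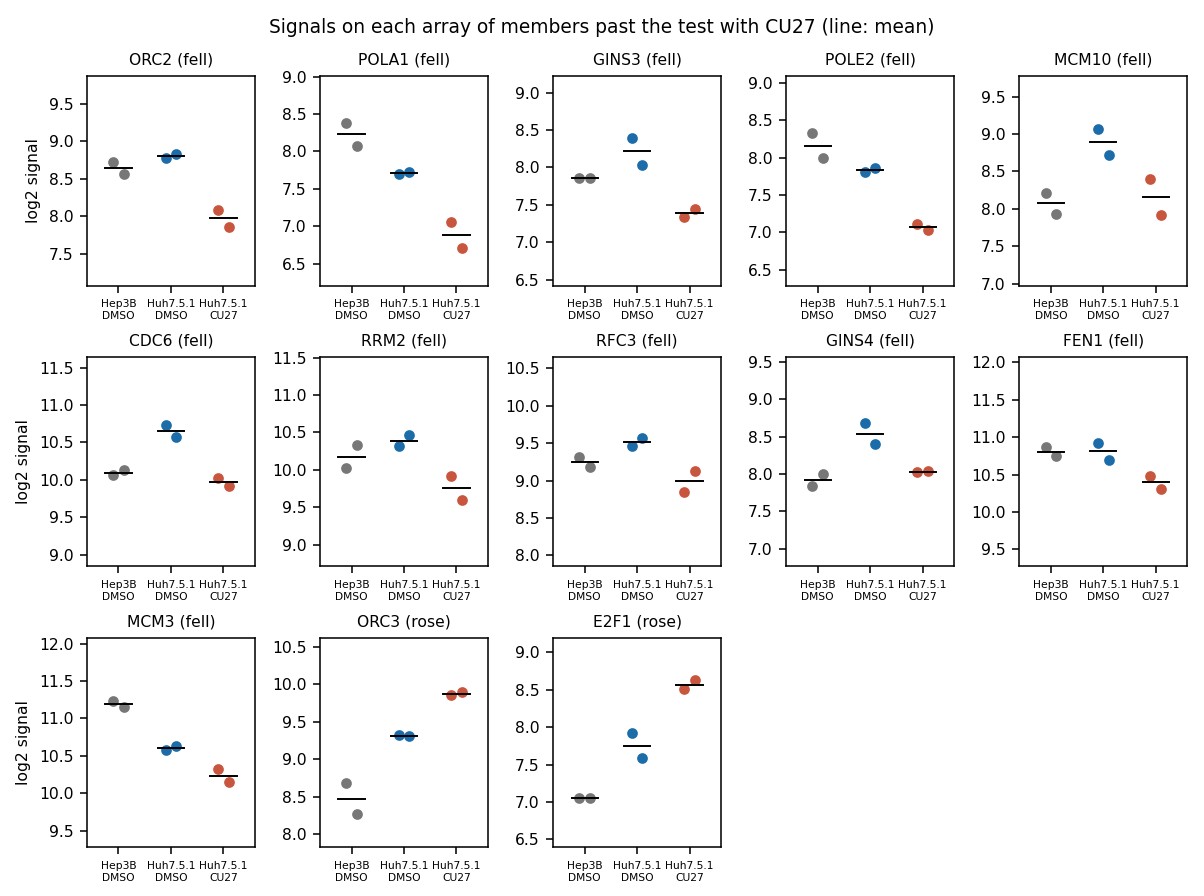
Log2 signal (y axis) on each array for the 13 members past the test with CU27, in the 3 groups (x axis: Hep3B with DMSO, then Huh7.5.1 with DMSO or with CU27), with a line at the mean of 2 arrays. Every panel spans the same 2.8 log2 units, and in each the CU27 points do not overlap the Huh7.5.1 DMSO points. Of all genes tested, 31% had both CU27 arrays below both DMSO arrays and 32.9% above.

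Origin firing genes had the lowest median of the 7 roles, -0.50, with 3 of 8 falling and 0 rising. GINS3, a subunit of the GINS complex that joins the helicase, read 8.40 and 8.03 with DMSO and 7.34 and 7.45 with CU27. The difference was -0.82 ± 0.16 (adjusted p = 0.00862). Without Huh7.5.1 DMSO replicate 1, the higher DMSO array, it was -0.64 with an adjusted p of 0.0663. GINS4 went from 8.69 and 8.40 to 8.02 and 8.04, a difference of -0.51 ± 0.16 (adjusted p = 0.0443). Each of the 6 arrays, when left out, ended the GINS4 call, with values from -0.65 to -0.36 and adjusted p from 0.0638 to 0.259.

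MCM10, which binds the activated helicase and helps polymerase alpha engage, read 9.06 and 8.72 with DMSO and 8.40 and 7.92 with CU27. It fell by 0.73 ± 0.20 (adjusted p = 0.0309), and both other probe sets were lower too, at -0.85 and -0.66. Left-out arrays ended the MCM10 call in 5 cases, the Huh7.5.1 DMSO replicates 1 and 2 (-0.56 and -0.90), Huh7.5.1 CU27 replicate 2 (-0.49) and the Hep3B replicates (-0.73 each), with adjusted p from 0.051 to 0.177. GINS1 at -0.49 ± 0.18 and GINS2 at -0.37 ± 0.18 were not past the test. All 4 GINS genes had both CU27 arrays below both DMSO arrays, as did 31% of all genes tested. When all probe sets were tested, both other GINS1 probe sets were past the test, at -0.93 and -1.01.

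The kinase pair that triggers firing lay in the same direction without a call. CDC7 read 9.21 and 9.14 with DMSO and 8.86 and 8.23 with CU27, a difference of -0.63 ± 0.26 (adjusted p = 0.113) in which the CU27 arrays were themselves far apart. DBF4, its activating subunit, was at -0.33 ± 0.19. CDC45, the helicase cofactor, was the exception of this role at 0.20 ± 0.20, with overlapping arrays.

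Among 10 polymerase and primase genes, 2 fell and 0 rose, with a median of -0.20. POLA1, the catalytic subunit of polymerase alpha that extends primers, read 7.70 and 7.73 with DMSO and 7.06 and 6.70 with CU27. It fell by 0.83 ± 0.18 (adjusted p = 0.0108), and the call was lost without Huh7.5.1 DMSO replicate 1 (-0.85, adjusted p = 0.051), Huh7.5.1 DMSO replicate 2 (-0.82, adjusted p = 0.0763) or Huh7.5.1 CU27 replicate 2 (-0.66, adjusted p = 0.0599). POLE2, the second subunit of the leading-strand polymerase epsilon, went from 7.81 and 7.86 to 7.11 and 7.03. That was a difference of -0.77 ± 0.16 (adjusted p = 0.00994), or -0.74 with an adjusted p of 0.0775 without Huh7.5.1 DMSO replicate 2. Each of these 2 genes had 1 probe set, so no second reading was available.

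Partners of the same enzymes changed less. POLE, the catalytic subunit that POLE2 binds, was at -0.06 ± 0.14, and POLE3, a small histone-fold subunit, at -0.19 ± 0.12. POLA2 was at -0.29 ± 0.16 and the primase subunits PRIM1 and PRIM2 at -0.47 ± 0.19 and 0.06 ± 0.15. For polymerase delta, POLD1, POLD2 and POLD3 had 0.32, -0.15 and -0.21, none past the test. The POLD1 arrays with CU27, 8.25 and 8.20, lay above those with DMSO, 8.01 and 7.81, as was so for 32.9% of all genes tested.

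The clamp, its loader, the single-strand binding proteins and the lagging strand enzymes had a median of -0.02, with 2 of 11 falling and 0 rising. RFC3, a subunit of the clamp loader, read 9.46 and 9.56 with DMSO and 8.85 and 9.13 with CU27, a difference of -0.52 ± 0.15 (adjusted p = 0.0342). It missed the test in 7 of 17 alternatives (adjusted p from 0.0162 to 0.185), with values of -0.57 and -0.47 without Huh7.5.1 DMSO replicate 1 or 2, -0.38 without Huh7.5.1 CU27 replicate 1 and -0.52 without either Hep3B array. FEN1, the nuclease that trims flaps between lagging strand fragments, went from 10.92 and 10.70 to 10.49 and 10.31, a difference of -0.41 ± 0.13 (adjusted p = 0.0431). FEN1 missed the test in 8 of 17 alternatives (adjusted p from 0.0193 to 0.241), among them Huh7.5.1 DMSO replicates 1 and 2 left out (-0.30 and -0.53), Huh7.5.1 CU27 replicate 2 (-0.33) and each Hep3B array (-0.41). Its other probe sets, at -0.46 and -0.44, were past the test when all probe sets were tested.

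LIG1, the ligase that seals the fragments FEN1 has trimmed, did not follow it. LIG1 read 8.08 and 7.97 with DMSO and 8.39 and 8.52 with CU27, a difference of 0.43 ± 0.14 that was not past the test (adjusted p = 0.0587), and its 5 other probe sets were all higher too, by 0.14 to 0.46. PCNA, the sliding clamp, was at -0.22 ± 0.13 with overlapping arrays, while its other probe set near the floor was at -0.78. RPA1, RPA2 and RPA3, which coat single-stranded DNA, were at 0.13, -0.21 and -0.02. RFC1, RFC2 and RFC4 were at 0.11, -0.31 and 0.03.

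RFC5, a further clamp loader subunit, had probe sets that disagreed. The probe set with the highest mean read 9.33 and 9.12 with DMSO and 10.14 and 9.49 with CU27, a difference of 0.59 ± 0.21 (adjusted p = 0.07). The other 3 were lower with CU27, at -0.54, -0.51 and -0.35, and 2 of these were past the test when all probe sets were tested. The direction of RFC5 is thus not settled by these probe sets.

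In nucleotide supply, 1 of 4 genes fell and 0 rose, with a median of -0.13. RRM2, the S-phase subunit of ribonucleotide reductase, read 10.32 and 10.46 with DMSO and 9.91 and 9.60 with CU27. The difference was -0.63 ± 0.16 (adjusted p = 0.0198) by a probe set whose name marks possible cross-hybridisation, and the other probe set was at -0.14. With the mean of both the value was -0.39 (adjusted p = 0.121). The RRM2 call was also lost without Huh7.5.1 DMSO replicate 1 (-0.71, adjusted p = 0.0557), Huh7.5.1 DMSO replicate 2 (-0.56, adjusted p = 0.133) or Huh7.5.1 CU27 replicate 2 (-0.48, adjusted p = 0.0997). RRM1, the large subunit of the same enzyme, was at 0.10 ± 0.12. TYMS, which makes thymidylate, was at -0.26 ± 0.13, and TK1, which salvages thymidine, at 0.01 ± 0.16.

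Among the G1/S regulators, E2F1 rose and the other 3 had no call. E2F1, a transcription factor that activates many replication genes, read 7.92 and 7.59 with DMSO and 8.51 and 8.63 with CU27. The rise was 0.81 ± 0.16 (adjusted p = 0.00818), or 0.65 when Huh7.5.1 DMSO replicate 2 was left out, which ended the call. Its relative E2F2 was at -0.25 ± 0.16. CCNE1 and CCNE2, the cyclins E that activate CDK2 at S-phase entry, were at -0.26 and 0.06.

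None of the 4 chromatin genes was past the test. UHRF1, which recruits the maintenance DNA methyltransferase to newly copied DNA, read 9.81 and 9.46 with DMSO and 9.39 and 8.81 with CU27, a difference of -0.54 ± 0.20 (adjusted p = 0.0833). SLBP, which binds the stem-loop of histone mRNAs, read 10.88 and 10.70 with DMSO and 11.14 and 11.01 with CU27, a difference of 0.29 ± 0.11 (adjusted p = 0.0874). CHAF1A and CHAF1B, subunits of the chromatin assembly factor that places histones behind the fork, were at 0.02 and -0.12.

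Set side by side, licensing, polymerase and nucleotide supply genes gave shares that rest on few calls, with 3, 2 and 1 genes falling. The nucleotide gene, RRM2, lost its call with the mean of its probe sets. The share that fell was 20% of 15 licensing genes, 20% of 10 polymerase and primase genes and 25% of 4 nucleotide genes. Their medians were -0.13, -0.20 and -0.13, and of all genes tested 12.1% fell. Origin firing genes stood at 37.5% of 8 with a median of -0.50, and clamp and lagging strand genes at 18.2% of 11 with -0.02. Within each of these roles the differences spread more widely than the medians differed, from -0.84 to 0.56 for licensing and from -0.83 to 0.32 for polymerases. The difference between roles was not tested.

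**Figure D3:**
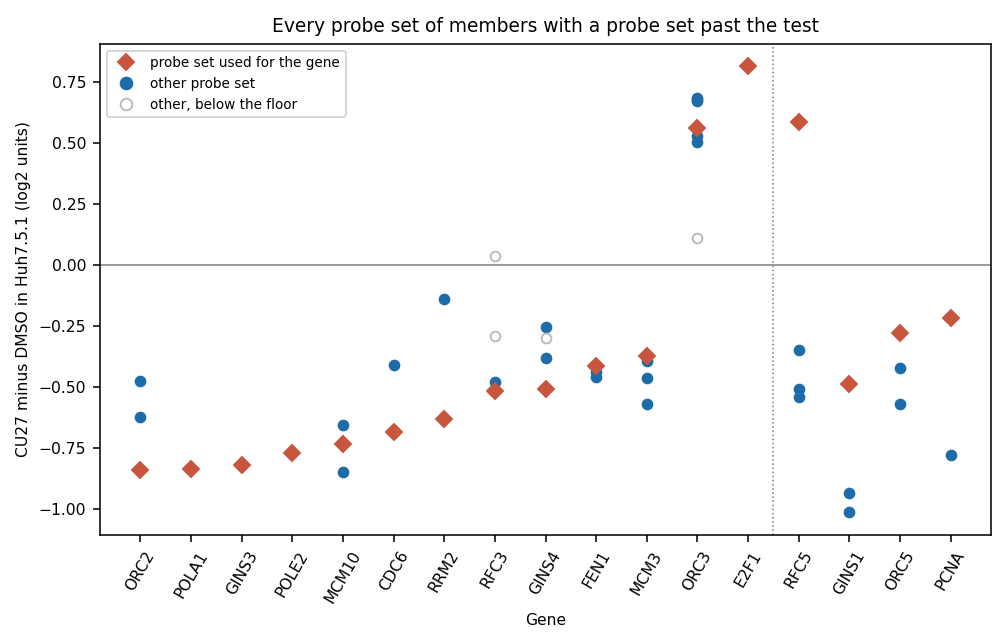
CU27 minus DMSO in Huh7.5.1 (y axis, log2 units) for every probe set of the 13 called members and, right of the dotted line, of 4 further members with a probe set past the test. Diamonds mark the probe set used for the gene. Among called members, other probe sets above the floor lie on the side of the diamond, whereas for RFC5 they lie on the opposite side.

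Other probe sets above the floor gave a second reading for 9 of the 13 called members, and in all 9 each probe set above the floor had the direction of the one used. POLA1, POLE2, GINS3 and E2F1 had 1 probe set. When each of the 136 member probe sets above the floor was tested, 21 were lower with CU27 and 5 higher. They came from 14 and 2 genes, and RFC5, ORC5, GINS1 and PCNA were added through probe sets other than the one used. GINS4 had no probe set past the test in this setting, and MCM3 and FEN1 passed only through others than the one used.

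Further genes of replication, listed by function, were lower more often than higher. They were listed with earlier results of these data known, so they give no separate support for the pattern of the members. Of 64 listed, 60 were tested, 16 fell and 3 rose, or 26.7% and 5%, against 12.1% and 12.6% of all genes. The 31.7% called compares with 24.7% of all genes, and the median was -0.26. In the G1/S control list 7 of 16 fell and 0 rose, in the chromatin list 4 of 9 and 0, in the replisome list 5 of 27 and 3, and in the list of 8 tested nucleotide enzymes 0 and 0.

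The largest fall among these was that of E2F5, a repressive E2F. It read 10.01 and 10.07 with DMSO and 8.76 and 8.59 with CU27, a difference of -1.36 ± 0.15 (limma adjusted p = 0.000794). CDCA7, which works with the remodeller HELLS in DNA methylation, fell by 1.32 ± 0.16 and HELLS itself by 1.03 ± 0.19. FBXO5, the EMI1 protein that holds back the anaphase-promoting complex in S phase, fell by 1.08 ± 0.15. ASF1A, a histone chaperone, fell by 0.96 ± 0.15 and CDC25A, the phosphatase that activates CDK2, by 0.83 ± 0.14. Both CU27 arrays lay below both DMSO arrays for each of these 6 genes, as they did for 31% of all genes tested.

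At the fork, TIPIN, which stabilises stalled forks, fell by 0.93 ± 0.16, CHTF8, part of an alternative clamp loader, by 0.94 ± 0.12, and RNASEH2B, a subunit of the enzyme that removes ribonucleotides from DNA, by 0.92 ± 0.16. POLD4, the small subunit of polymerase delta, rose from 10.10 and 10.10 to 10.92 and 11.58, by 1.15 ± 0.19 (adjusted p = 0.00417), and its other probe sets were higher by 1.07 and 1.10. All 10 genes of this and the preceding paragraph stayed past the test in every alternative in which they were tested. These 10 were picked for the smallest p of the list on the same arrays, so keeping their calls follows largely from that choice. TIMELESS, the partner of TIPIN, and CHTF18, a further part of that clamp loader, were the other 2 that rose, at 0.56 ± 0.16 and 0.59 ± 0.19. They are named after their values were seen. TIMELESS lost its call without any single Huh7.5.1 array and, at 0.15 (limma adjusted p = 0.499), with the mean over its probe sets, and CHTF18 in 11 of 17 alternatives (adjusted p from 0.0113 to 0.333).

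Between the lines in DMSO, members were called in both directions. The median of all tested genes was 0.22 higher in Huh7.5.1 than in Hep3B, so differences are given relative to that shift, after each array was centred on its median tested gene. On this scale 14 members were higher and 25 lower in Huh7.5.1, against 31.5% and 30.8% of all genes. On the deposited scale 15 were higher and 18 lower, against 41% and 22.9%, and with quantile normalisation 11 and 25. Of the 56 members, 69.6% were called after centring, against 62.3% of all genes, and 58.9% as deposited, against 64%. Calls were in opposite directions on the deposited and the centred scale for 0 members.

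Measured features of the arrays accompanied the difference between lines, and their part was not tested. The ACTB 3′ control exceeded the 5′ control by 2.28 and 1.60 in Hep3B, against 0.94 and 1.06 in Huh7.5.1, a larger gap between transcript ends. The Hep3B columns held exactly equal values at 1086 probe sets, among them the one used for RPA1. Among the 32 members with the same call on the deposited and the centred scale, 22 had another probe set above the floor, and for 4 of these at least 1 pointed the opposite way relative to the shift.

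**Figure D4:**
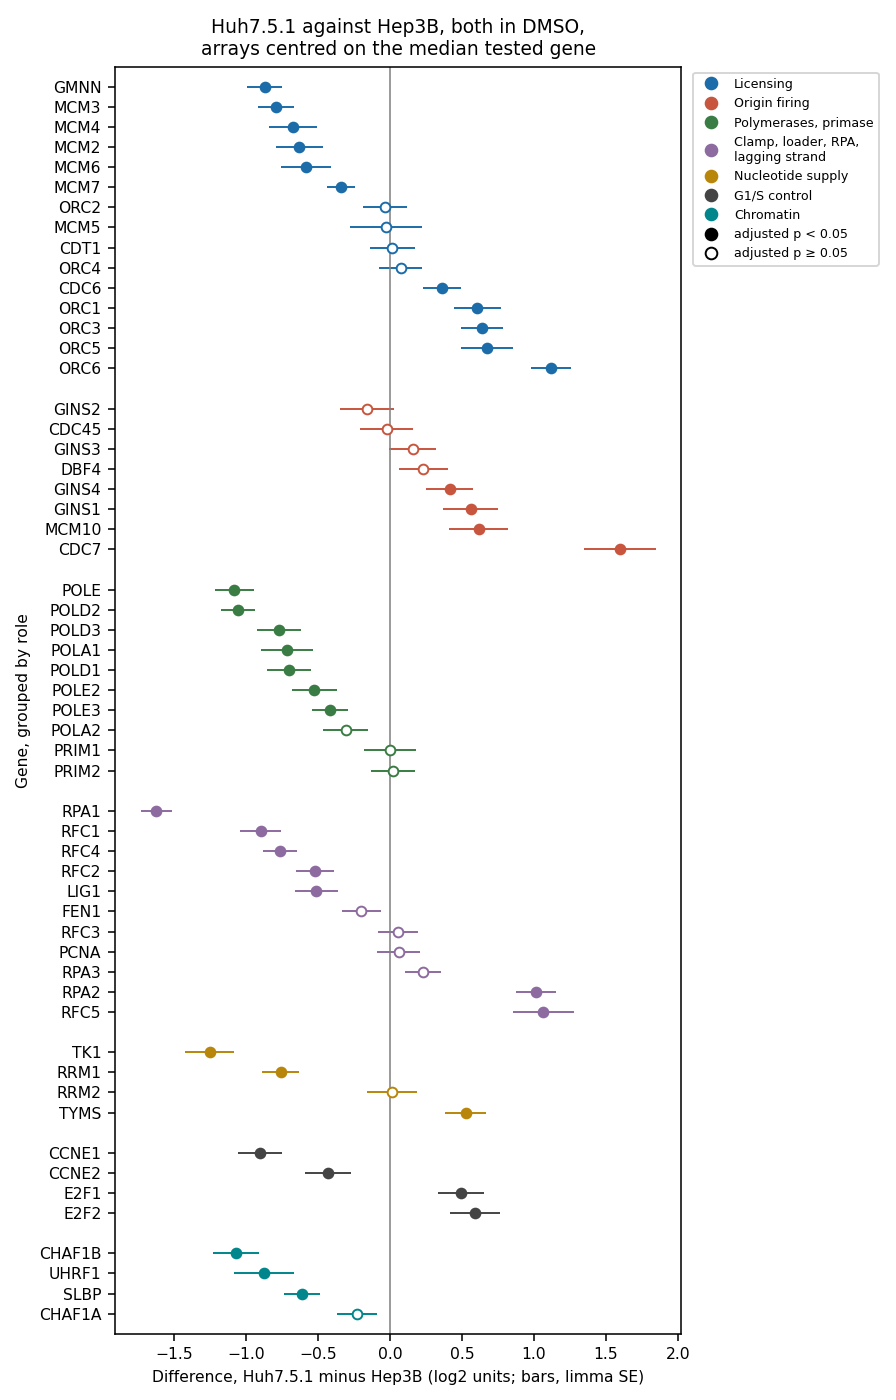
Difference between Huh7.5.1 and Hep3B in DMSO for the 56 members (x axis, log2 units, each array centred on its median tested gene; y axis, genes grouped by role), with limma standard errors as bars and filled points for an adjusted p below 0.05. Origin firing genes with a filled point, led by CDC7 at 1.60, lie to the right of 0 and filled polymerase genes to the left, of which POLD3 and POLE3 turn with the mean of their probe sets.

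After centring, 4 of 6 origin recognition genes and 4 of 8 firing genes were higher in Huh7.5.1 and 0 lower. Among all genes tested, 31.5% were higher and 30.8% lower. The called shares, 66.7% and 50%, compare with 62.3% of all genes. CDC7 read 7.73 and 7.03 in Hep3B and 9.21 and 9.14 in Huh7.5.1, a difference of 1.60 ± 0.25 after centring (limma adjusted p = 0.000296), and its other probe sets were at 1.28 and 1.34 on the deposited scale. ORC6 went from 9.21 and 9.06 in Hep3B to 10.55 and 10.36 in Huh7.5.1, a difference of 1.12 ± 0.14. ORC1, ORC3 and ORC5 were also higher, by 0.61, 0.64 and 0.67, while ORC2 and ORC4 were not past the test. Of the firing genes MCM10, GINS1 and GINS4 were higher as well, by 0.62, 0.56 and 0.42. With quantile normalisation GINS4 was at 0.32 and not past the test (limma adjusted p = 0.107).

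By the probe sets used, much of the MCM ring and of the polymerases was lower in Huh7.5.1. GMNN was at -0.87 and MCM3 at -0.79, and 5 of the 6 ring genes were lower after centring, or 3 on the deposited scale. For these counts and those of the polymerases below, 30.8% of all genes were lower after centring and 22.9% on the deposited scale. MCM2, MCM4, MCM6 and MCM7 depended on the probe set. On the deposited scale the MCM2 probe set used was at -0.43 and its others at -0.39, 0.32 and -0.24. Its call was lost in 5 of 16 alternatives. The MCM6 probe set used was at -0.38 and its others at 0.09 and 0.11, and MCM6 was called in 6 of 16 alternatives. The MCM4 probe set used was at -0.47 on the deposited scale and the 4 others were between 0.37 and 1.07. The MCM7 probe set used was at -0.14 and the 3 others were at 1.54, 0.69 and 0.03. CDT1 also depended on the probe set, with 0.22 and no call for the one used and 1.63 and 2.00 for the others. POLE read 9.28 and 9.18 in Hep3B and 8.33 and 8.38 in Huh7.5.1, a difference of -1.08 ± 0.14 (adjusted p = 7.05e-05). POLD2 read 11.26 and 11.22 against 10.45 and 10.33, a difference of -1.06 ± 0.12. Of 10 polymerase and primase genes 7 were lower after centring, or 5 on the deposited scale, and 0 higher, although POLD3 and POLE3 reversed with the mean of their probe sets. The POLE3 probe set used was at -0.21 on the deposited scale, and its others above the floor were at 0.61, 0.77 and 0.07. POLA1 at -0.72 and POLE2 at -0.52 belonged to these.

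Single-strand binding proteins and clamp loaders diverged. RPA2 read 9.32 and 9.43 in Hep3B and 10.50 and 10.69 in Huh7.5.1, a difference of 1.02 ± 0.14 that its 2 other probe sets shared. RPA1 read 11.80 and 11.80 against 10.37 and 10.40, a difference of -1.62 ± 0.11, but its other probe set, near the floor, was at 0.06 on the deposited scale. RFC1 was at -0.90 and RFC4 at -0.76. The RFC5 probe set used was at 1.07, while its other 3 were between -1.10 and -0.81 on the deposited scale, so its direction between lines is not settled either.

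Of the nucleotide supply genes 2 were lower and 1 higher in Huh7.5.1, and of the chromatin genes 3 were lower and 0 higher. Among all genes tested, 30.8% were lower and 31.5% higher after centring. TK1 read 10.64 and 10.84 in Hep3B and 9.86 and 9.53 in Huh7.5.1, a difference of -1.25 ± 0.17 (adjusted p = 0.000114). Its other probe set gave -1.30 on the deposited scale. RRM1 was lower, at -0.76, and TYMS higher, at 0.53, while RRM2 was at 0.01 and not past the test. CHAF1B was at -1.07, UHRF1 at -0.88 and SLBP at -0.61, although UHRF1 missed the test in 4 of 16 alternatives (limma adjusted p from 0.0041 to 0.378). On the deposited scale the UHRF1 probe set used was at -0.67 and its other above the floor at 0.07. For SLBP these were at -0.41 and -0.17. Among the G1/S regulators CCNE1 was at -0.90 and CCNE2 at -0.43, and E2F1 and E2F2 were higher, at 0.49 and 0.59. With quantile normalisation E2F1 was at 0.34 and E2F2 at 0.39, neither past the test (limma adjusted p = 0.0895 and 0.061). CCNE1 and CCNE2 stayed past it.

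Both comparisons use the same Huh7.5.1 DMSO arrays, so levels in the 3 groups are set side by side for a few called genes without relating the differences. CDC6 read 10.06 and 10.13 in Hep3B with DMSO, 10.74 and 10.58 in Huh7.5.1 with DMSO and 10.02 and 9.92 in Huh7.5.1 with CU27. MCM10 read 8.21 and 7.93, then 9.06 and 8.72, then 8.40 and 7.92. POLA1 showed another order, with 8.38 and 8.08, then 7.70 and 7.73, then 7.06 and 6.70, and E2F1 the opposite one, with 7.06 and 7.06, then 7.92 and 7.59, then 8.51 and 8.63.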

How the data were processed

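Affymetrix arrays of biotin-labelled cRNA were read for 8 cultures, per the labels' protocols. The authors deposited probe set signals for 49395 probe sets, taken as log2 values from their range. The submitters' processing notes list MAS5 without a version, and how arrays were scaled to each other stays unknown. After 102 controls were removed, 44988 probe sets had 1 gene symbol in the platform annotation, 1832 several and 2473 none. All 56 members matched RefSeq by Entrez identifier with their symbol unchanged.

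Testing covered the 11383 genes with a group mean at or above the floor (50th percentile, log2 6.11). The main model was limma 3.58.1 under R 4.3.3 (lmFit, eBayes with intensity trend, 3 residual and 5.87 prior degrees of freedom), with two-sided p-values adjusted by Benjamini-Hochberg over all tested genes. With 2 arrays a group an exact permutation test cannot go below 0.333. The limma p-values set each difference against a spread pooled over the 3 groups and drawn towards the trend over all tested genes. They do not reach beyond these cultures. In a simulation of the CU27 comparison over 11383 genes, 200 were changed, against 2809 called in the data, with noise drawn from the fitted spreads. Of 2-fold changes 95% were recovered, and 3.94% of calls were false, a share that such noise keeps low by construction. Changes below 2-fold, the size of all called members, were not simulated.

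The members and lists were chosen with earlier results of these data known. All members past the test with CU27 are named, with the member of smallest p in each role, up to 12 members between lines by size of the centred difference, and up to 10 further genes by p. Alternatives changed the scaling, floor, probe set, variance model and columns, or left out an array. The alternative with all 8 deposited columns used the Hep3B CU27 columns, which are linear formulas of the DMSO columns. It is therefore no separate check wherever alternatives are counted.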

Additional observations from a re-analysis of the deposited data

How the results depend on the processing

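In settings other than leaving out a single array, the count of members that fell with CU27 stayed between 8 and 13 against 11. The count of all called members stayed between 10 and 16 against 13. Settings with all 8 deposited columns and with only the 4 arrays compared are included in these ranges. The count that rose was 1 rather than 2 with all 8 deposited columns and without probe sets ending in _x_at or _s_at. Leaving out single arrays gave 2 to 14 called members, 2 to 13 that fell and 0 to 2 that rose. Between lines it gave 26 to 35 called, 12 to 20 lower and 11 to 16 higher, where a lone array was assumed to vary like the other groups. With a replicate block for Huh7.5.1, 16 members were called, 13 lower and 3 higher. The replicate differences correlated at 0.18 over genes, and nothing in the labels says that numbers pair cultures. No CU27 value of a named gene with a call reversed. Between lines the choice of probe set turned the sign of 6 members called on the deposited or the centred scale. With the mean over probe sets MCM4 was at 0.43, POLD3 at 0.43, MCM7 at 0.53, POLE3 at 0.37 and RFC5 at -0.37. Without _x_at and _s_at probe sets MCM4 was at 0.75, POLE3 at 0.61, RFC5 at -0.81 and RPA1 at 0.057, and RFC5 was at -0.81 both with all 8 columns and with only the 4 arrays compared, because another probe set had the highest mean. The number of arrays limits the precision, and signal over background is known only through the floor.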

Other observations

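Subunits of the same complex were read by separate probe sets and can be set side by side with CU27. ORC2 fell while ORC3 rose. POLA1 fell while its partner POLA2 was at -0.29 ± 0.16 and had no call. Among the nucleotide reductase subunits RRM2 fell and RRM1 was at 0.10. TIPIN fell and TIMELESS rose, though TIMELESS was at 0.15 with the mean over its probe sets, and POLD4 rose while POLD1, POLD2 and POLD3 had no call. The differences between subunits were not tested.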
